A study of Mus musculus with 18 samples.

Results

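The genes described here are 31 named genes of the G2 phase and mitosis, out of 21200 named genes on an Agilent whole-genome mouse expression array that measured whole blood. They were chosen by name, and every probe whose gene name, current or older, was 1 of the 31 was taken (Cdk1 is printed on the array as Cdc2a, Ndc80 as Kntc2 and Nuf2 as Cdca1). The 31 genes were represented by 51 probes. Of the 31 genes, 29 were among the 13619 genes tested, and Ttk and Kif11 were too dim to be tested.

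All mice were male C57BL/6N animals, 8 to 12 weeks old. They received gamma radiation from a cesium source at 0 Gy (sham), 2 Gy or 8 Gy, and whole blood was drawn by cardiac puncture at 6 h. The 0 Gy group had 7 mice, the 2 Gy group 5 and the 8 Gy group 6, and each mouse was measured on an array of its own. Globin RNA was removed from all samples, and RNA was extracted with the RiboPure kit in 5 of the 0 Gy, 4 of the 2 Gy and all 6 of the 8 Gy samples, and with the PAXgene kit in the other 2 samples at 0 Gy and 1 at 2 Gy. Whole blood mixes many cell types, so fewer cells of a type and less RNA per cell cannot be told apart.

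Cells that enter mitosis first accumulate A-type and B-type cyclins, which activate the kinase Cdk1. Polo-like and Aurora kinases then build the spindle, kinetochore proteins attach chromosomes to it, and the spindle checkpoint holds back the anaphase-promoting complex, a ubiquitin ligase, until attachment is complete. Most genes of this programme are transcribed together late in the cell cycle: protein assemblies built on the MuvB core bind a cell cycle homology region (CHR) in their promoters, and the factor NF-Y binds CCAAT boxes nearby. The same MuvB core forms part of the DREAM repressor, through which p53 and its target Cdkn1a (p21) are known to shut these genes off in irradiated dividing cells. Most white cells in circulating blood are not dividing.

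Promoters of 27 of the 31 genes were found in the RefSeq table of mouse build GRCm38.p6, as windows from 250 bases before to 50 bases after the annotated start. Those of Aurkb, Tpx2, Ccna2 and Kif20a were not analysed here. The table held 32851 promoters for 27025 genes, and only the first listed promoter of a gene was searched. The CHR core was searched as TTTGAA and as TTCGAA, and the NF-Y box as CCAAT, on both strands, and matches of different motifs could overlap. TTTGAA occurred in 19 of the 27 promoters (70.4%), against 18.1% of the 27025 genes in the table. Within 50 bases of the start it occurred in 17 of the 27 (63.0%), against 5.11% of all genes. TTCGAA occurred in 3 of the 27 (11.1%), against 1.57% of all genes. CCAAT occurred in 21 of the 27 (77.8%), against 37.9% of all genes, and a CHR core of either spelling together with CCAAT in 18 (66.7%), against 7.7%. A match describes these letters only and is not a measured binding site.

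Signals of the following genes are compared further on, and their promoters are printed because they differ in these motifs. Capitals mark the motifs searched, on either strand. Ube2c (chr2:164769679-164769978, plus strand), Ccnb2 (chr9:70421505-70421804, minus strand) and Plk1 (chr7:122159185-122159484, plus strand) carried both kinds of motif. Cks2 (chr13:51644982-51645281, plus strand) had 4 CCAAT boxes and no CHR core. Nusap1 (chr2:119618048-119618347, plus strand) had neither in the window searched, as had Birc5, Melk and Nuf2. Other annotated starts of these genes were not searched.
Ube2c: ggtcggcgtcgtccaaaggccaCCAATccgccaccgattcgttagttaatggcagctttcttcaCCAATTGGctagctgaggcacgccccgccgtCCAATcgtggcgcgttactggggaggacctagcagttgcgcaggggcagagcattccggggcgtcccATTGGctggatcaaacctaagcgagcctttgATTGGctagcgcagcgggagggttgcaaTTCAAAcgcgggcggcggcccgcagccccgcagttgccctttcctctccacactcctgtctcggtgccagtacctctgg
Ccnb2: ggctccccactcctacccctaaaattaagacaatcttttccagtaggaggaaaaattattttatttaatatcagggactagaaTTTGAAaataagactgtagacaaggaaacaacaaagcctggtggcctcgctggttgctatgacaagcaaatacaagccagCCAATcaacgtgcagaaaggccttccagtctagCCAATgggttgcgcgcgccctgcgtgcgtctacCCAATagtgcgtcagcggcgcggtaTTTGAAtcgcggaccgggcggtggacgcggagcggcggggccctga
Plk1: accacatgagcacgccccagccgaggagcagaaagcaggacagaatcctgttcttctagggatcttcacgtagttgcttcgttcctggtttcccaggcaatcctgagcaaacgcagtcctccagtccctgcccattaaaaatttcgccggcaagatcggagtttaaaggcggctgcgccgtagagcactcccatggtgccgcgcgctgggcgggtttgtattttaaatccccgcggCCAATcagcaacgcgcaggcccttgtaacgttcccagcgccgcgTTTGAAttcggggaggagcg
Cks2: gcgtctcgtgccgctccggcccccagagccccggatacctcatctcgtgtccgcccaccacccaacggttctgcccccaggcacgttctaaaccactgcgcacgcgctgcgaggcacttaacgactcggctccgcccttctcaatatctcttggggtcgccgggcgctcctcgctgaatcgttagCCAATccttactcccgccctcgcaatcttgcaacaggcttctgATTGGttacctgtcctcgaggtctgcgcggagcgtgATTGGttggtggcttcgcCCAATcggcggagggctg
Nusap1: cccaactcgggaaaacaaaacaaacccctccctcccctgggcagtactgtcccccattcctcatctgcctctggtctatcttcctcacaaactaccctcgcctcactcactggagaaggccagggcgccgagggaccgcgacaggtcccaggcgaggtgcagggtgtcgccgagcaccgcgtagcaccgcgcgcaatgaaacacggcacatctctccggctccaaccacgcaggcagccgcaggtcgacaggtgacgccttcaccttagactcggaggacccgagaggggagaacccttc

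Signals are given as log2 of the array signal minus the log2 75th percentile of that array, so 0 is the 75th percentile and negative values are dimmer. Levels are compared between samples for the same probe and never between probes. Fold changes come from limma's moderated test fitted on all 18 arrays with dose and extraction kit, with Benjamini-Hochberg adjustment over all 13619 genes and a threshold of 0.05 for the adjusted p. The 75th percentile signal was 138 to 425 on the 0 Gy arrays, 46.4 to 186 on the 2 Gy arrays and 58.4 to 232 on the 8 Gy arrays.

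Transcripts of most of these genes were measurable in blood. The scanner software rated 17 of the 31 genes well above background on all 18 arrays, and the other 14 on 1 to 17 arrays. The number of the 31 genes rated so on an array was 26 to 30 at 0 Gy, 17 to 27 at 2 Gy and 19 to 31 at 8 Gy. The lowest numbers were on dim arrays: 2 Gy replicate 4, with a 75th percentile of 46.4, had 17, and 8 Gy replicate 2, with 58.4, had 19. The part of array brightness in the detection counts was not tested.

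**Figure D1:**
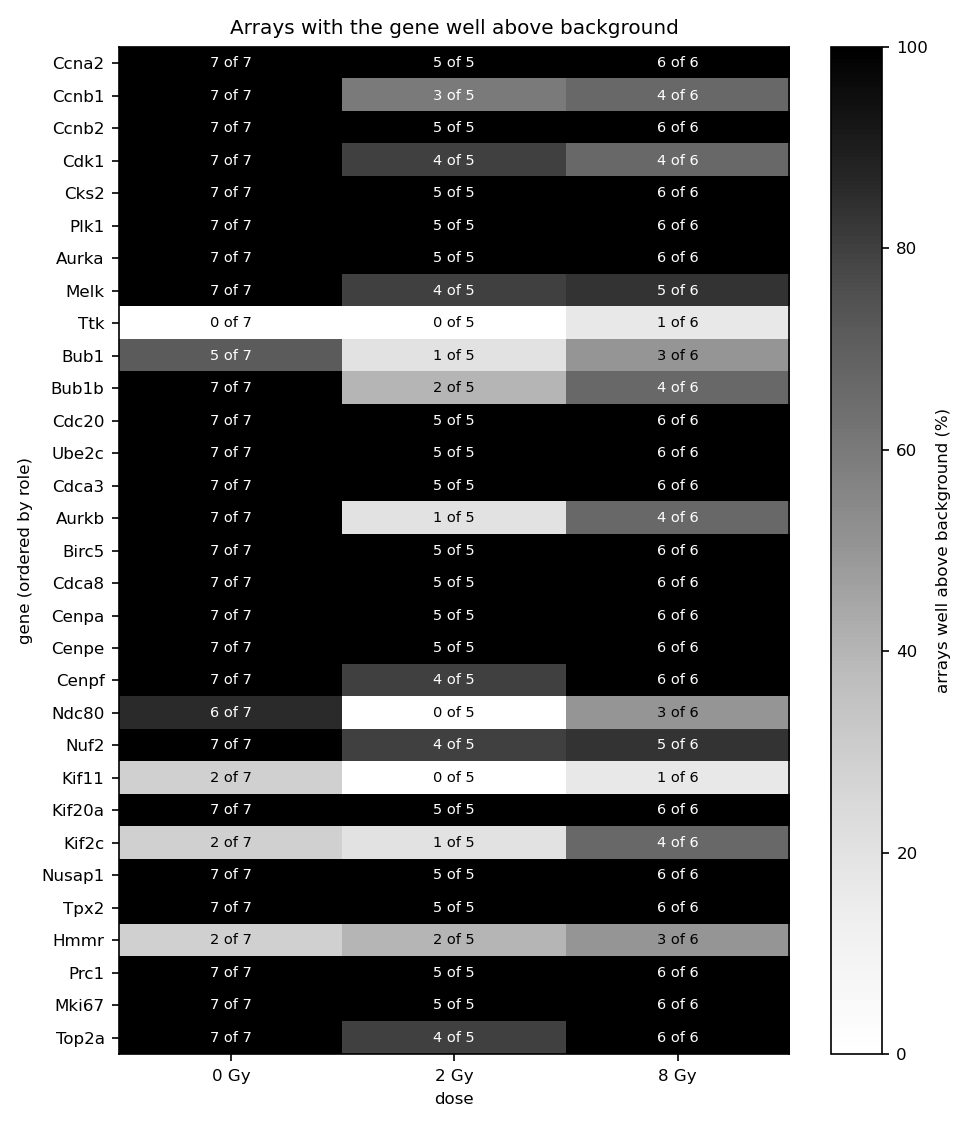
Number of arrays on which each of the 31 genes was well above background, by dose (columns, 7, 5 and 6 arrays), with genes in rows in order of their role and shading giving the percentage of arrays. Most genes were rated so on all arrays, Ttk on 1 of 18, and Ndc80 on 6 of 7, 0 of 5 and 3 of 6 arrays in the order of the columns.

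Probes of the same gene differed in what they detected. The bright probe of Top2a, the topoisomerase that untangles mitotic chromosomes, was well above background on 17 arrays and spans chr11:99104969-99105783 (minus strand) in the array's build mm7, while another probe of the same gene at chr11:99124086-99125113 was so on 1 array. Both 60-base probes are shown because they target the same gene with different outcomes. Their mm7 spans are longer than the probes themselves, at 815 and 1028 bases.
Top2a, well above background on 17 arrays: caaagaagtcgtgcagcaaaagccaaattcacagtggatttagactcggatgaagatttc
Top2a, well above background on 1 array: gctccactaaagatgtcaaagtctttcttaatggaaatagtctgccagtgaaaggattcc

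Before any comparison, 3 arrays stood apart. The array labelled 0 Gy replicate 5 had a Cdkn1a signal of 1.28, while the other 0 Gy arrays lay between -4.08 and -1.46, the 2 Gy arrays between -0.30 and 1.62, and the 8 Gy arrays between 1.20 and 2.67. Its Psrc1 signal, 2.86, also lay among those of irradiated mice (1.96 to 3.66 at 2 Gy and 2.99 to 3.82 at 8 Gy) and above the other 0 Gy arrays (-3.36 to -0.78). The arrays 0 Gy replicate 4 and 2 Gy replicate 3 had the lowest median correlations with the other arrays over all genes tested, 0.833 and 0.847. By both p53 targets the array labelled 0 Gy replicate 5 went against its label, and whether the label or the exposure was in error was not tested. It is kept as labelled, so every 0 Gy mean, range and overlap and every fold change against 0 Gy includes it unless its omission is stated. The counts of the 29 mitosis genes and of each gene list called are given with and without it. Without it, 22.6% of all genes tested passed at 8 Gy and 7.12% at 2 Gy in limma's test, against 12% and 0.0587% with it.

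The G2 and mitosis genes varied widely between mice of the same dose. Of the 29 tested genes, 17 had their lowest value of all 18 arrays in 0 Gy replicate 4, and 13 had their highest in 8 Gy replicate 5. The mean level over the 29 genes, relative to the 0 Gy mean, was -0.93 to 0.64 in 0 Gy mice, -0.58 to 0.66 in 2 Gy mice and -0.17 to 0.93 in 8 Gy mice, and the doses overlapped. The SD of a gene among mice of a dose had a median of 0.64 at 0 Gy, 0.62 at 2 Gy and 0.61 at 8 Gy over the 29 genes.

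**Figure D2:**
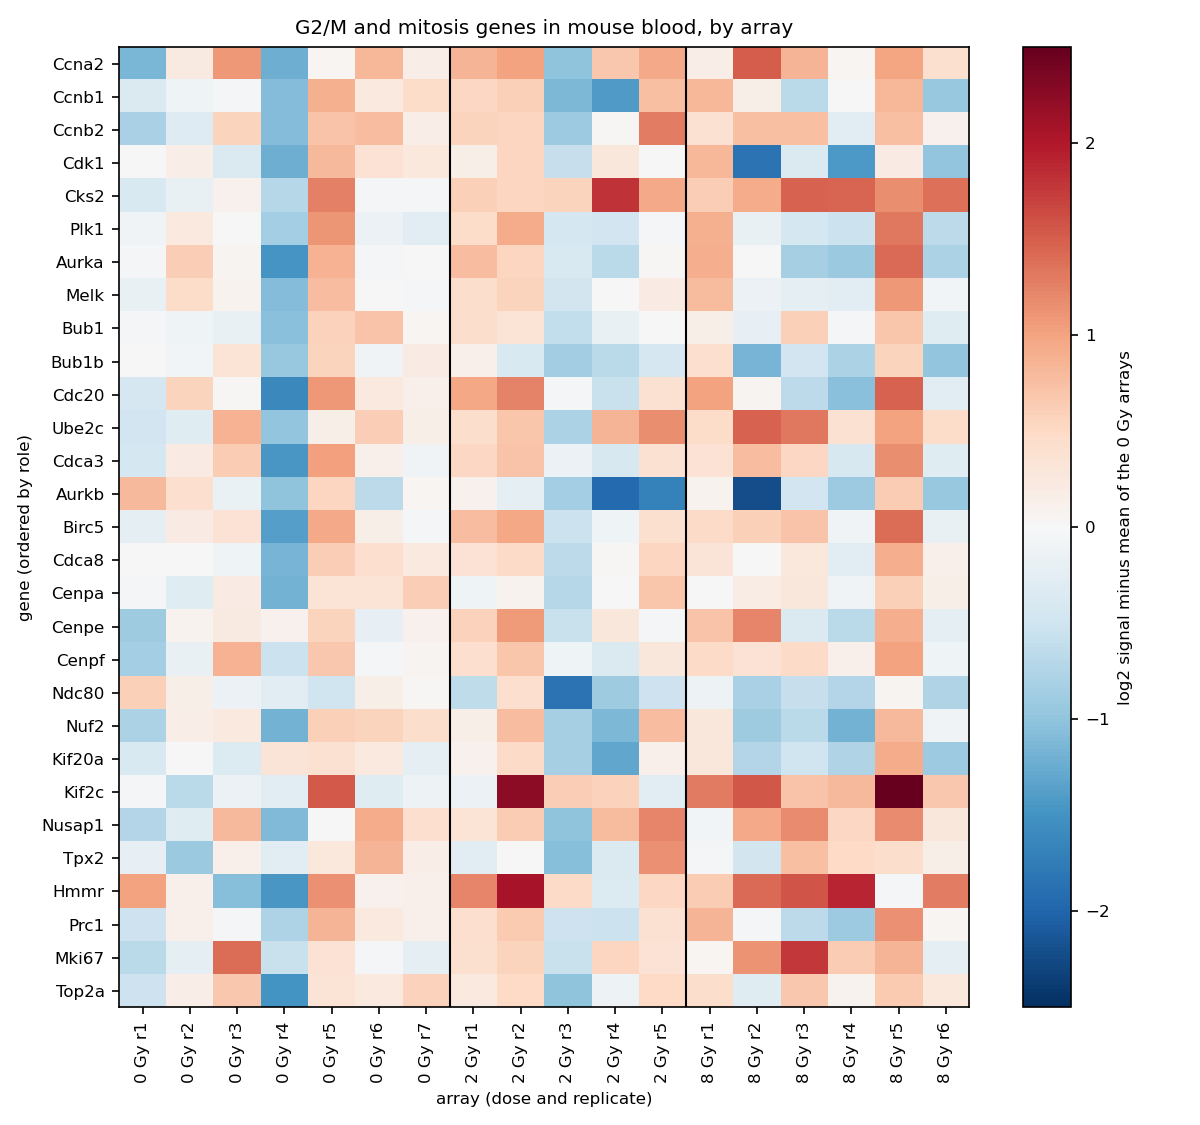
Log2 signal of the 29 tested genes (rows, in order of their role) on each of the 18 arrays (columns, 0 Gy, 2 Gy and 8 Gy separated by lines), relative to the mean of the 0 Gy arrays. Columns such as 0 Gy replicate 4 (mostly blue) and 8 Gy replicate 5 (mostly red) differ more than the dose blocks do.

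At 8 Gy, 1 of these genes, Cks2, was higher than at 0 Gy, and none was lower. That was 1 of 29 genes past the threshold (3.45%), against 12% of all 13619 genes, of which 7.57% were higher and 4.38% lower. The log2 fold changes of the 29 genes at 8 Gy against 0 Gy ran from -0.81 for Aurkb to 1.17 for Cks2, with 21 positive and 8 negative. Their median was 0.36, against 0.08 over all genes tested. Of the 17 genes well above background on all 18 arrays, 14 were positive and 3 negative, and of the other 12, 7 and 5. An unadjusted p under 0.05 in limma was found for 5 of the 29, against 4501 of all 13619 genes. The 95% interval of a gene's log2 fold change had a median half-width of 0.76, without adjustment for the number of genes tested. With these numbers of mice, changes smaller than that were usually not detectable. Some larger ones were not called either, such as Kif2c (1.13), Hmmr (1.12) and Ube2c (1.04). Without 0 Gy replicate 5, 3 of the 29 were called, all higher (10.3%, against 22.6% of all genes), and the median was 0.52. Without all 3 arrays that stood apart, the median was 0.25 and Cks2 was again the 1 gene called (log2 1.30, adjusted p = 0.00552 in limma). That was 3.45% of the 29, against 25.9% of all genes. Values of all 29 genes overlapped between 8 Gy and 0 Gy mice. Without 0 Gy replicate 5, those of 2 genes, Cks2 and Kif2c, no longer did. The share of all genes without overlap was not computed, so these counts are not read as a trait of the 29 genes.

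At 2 Gy against 0 Gy, 0 of the 29 genes passed the threshold in limma's test, where 0.0587% of all genes (8 genes) did. Of all 13619 genes 2785 had an unadjusted p under 0.05, and of the 29 genes 3 did. Their median log2 fold change was 0.15, with 23 positive and 6 negative, against 0.06 over all genes. That direction did not hold in all fits: the median was -0.21 with slide as a fixed block and -0.22 with scan day as a fixed block (10 positive and 19 negative in each), and 0.03 and 0.04 with them as random blocks (18 positive and 11 negative). Without 0 Gy replicate 5, 1 of the 29 genes, Cks2, passed at 2 Gy (3.45%, against 7.12% of all genes) and the median was 0.29. Between 8 Gy and 2 Gy, 0 of the 29 genes and 0% of all genes passed in limma's test, with 0 and 423 at an unadjusted p under 0.05, and the 29 genes ran from -0.63 for Cdk1 to 0.58 for Kif2c. The comparisons of 2 Gy and of 8 Gy share the 0 Gy mice. Without 0 Gy replicate 4, the median at 8 Gy against 0 Gy was 0.13, and at 2 Gy against 0 Gy it was -0.02.

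**Figure D3:**
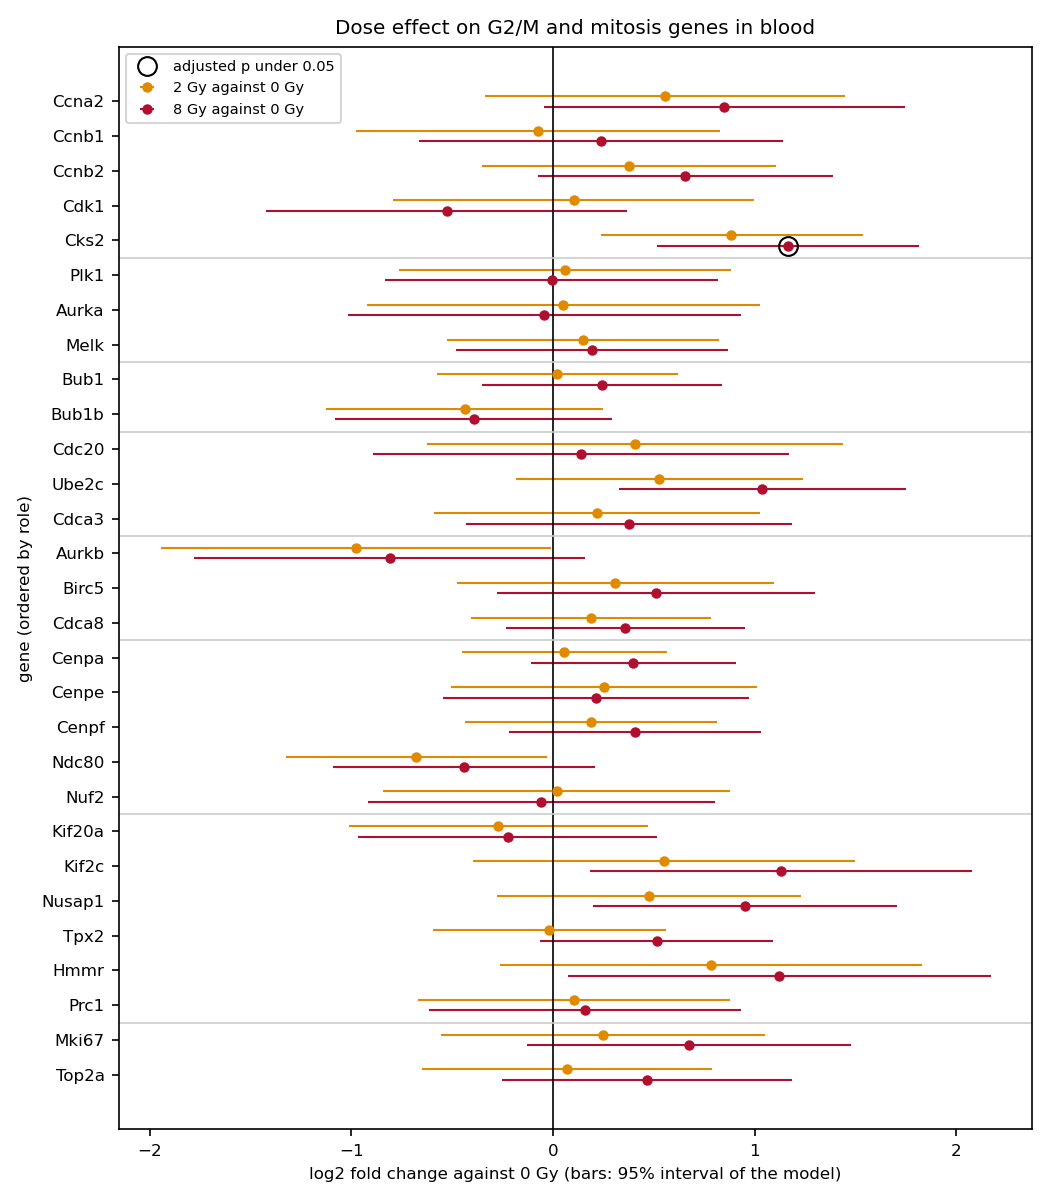
Log2 fold change against 0 Gy of each of the 29 tested genes (rows, grouped by role) at 2 Gy (orange) and 8 Gy (red), with the 95% interval of the limma fit as bars and a ring where the adjusted p was under 0.05. Cks2 at 8 Gy, at 1.17, carries the ring, and most other intervals include 0.

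Cyclins, Cdk1 and its cofactor held the called gene. Cks2 encodes a small protein that binds Cdk1 and helps it phosphorylate its substrates. Its signals had a lowest, median and highest value of 2.28, 2.96 and 4.25 in 0 Gy mice, were 3.60, 3.54, 3.55, 4.80 and 3.94 in 2 Gy mice, and had a lowest, median and highest value of 3.61, 4.28 and 4.48 in 8 Gy mice. All 2 Gy and 8 Gy mice lay above every 0 Gy mouse except 0 Gy replicate 5, which was at 4.25. At 8 Gy Cks2 was 2.24-fold higher than at 0 Gy (log2 1.17 ± 0.31, SE, 95% interval 0.52 to 1.82, adjusted p = 0.0302 in limma). At 2 Gy the log2 fold change was 0.89 (95% interval 0.24 to 1.54, adjusted p = 0.156 in limma). The other Cks2 probe, also well above background on all 18 arrays, gave 1.13 at 8 Gy and 0.83 at 2 Gy.

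The Cks2 call at 8 Gy was held in 10 of the 18 fits that left out 1 array. It was lost without 0 Gy replicates 1, 2 or 4 (limma adjusted p = 0.0776, 0.0738 and 0.0605), without 2 Gy replicate 5 (0.0539), and without 8 Gy replicates 3, 4, 5 or 6 (0.0598, 0.0595, 0.0594 and 0.0672). The log2 fold change stayed between 1.01 and 1.44 in these fits. Without 0 Gy replicate 5 it was 1.44 at 8 Gy (adjusted p = 0.00221) and 1.12 at 2 Gy, where the call was then made (adjusted p = 0.0199, limma). Slides 1, 3, 4, 5 and 8 held arrays of more than 1 dose. On slide 4 the 8 Gy mice differed in Cks2 from the 2 Gy mouse by -0.90 on the log2 scale (3 mice against 1). Within scan day 7 the 8 Gy mouse differed from the 2 Gy mouse by 0.83 (1 against 1). On slide 3 the 8 Gy mice were higher than the 0 Gy mouse by 1.84 on the log2 scale (2 mice against 1), and within scan day 7 an 8 Gy mouse differed by 0.14 from 0 Gy replicate 5. The 2 Gy mice differed from the 0 Gy mouse by 0.76 on slide 1 (2 against 1), 0.98 on slide 8 (1 against 1), and -0.70 on slide 5, again against 0 Gy replicate 5. With slide as a fixed block the 8 Gy value was 0.81 (adjusted p = 0.608) and with scan day as a fixed block it was 0.84 (adjusted p = 0.289, limma), in fits that called 0 of all genes and gave 1174 and 2522 at an unadjusted p under 0.05.

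Ccna2, cyclin A2 of S phase and G2, was 0.85 higher on the log2 scale at 8 Gy (95% interval -0.04 to 1.74, adjusted p = 0.17 in limma), with values of 3.71 to 5.16 in 8 Gy mice and 2.44 to 4.74 in 0 Gy mice. Ccnb2, a B-type cyclin, had a log2 fold change of 0.66 (-0.07 to 1.39), and Ccnb1, the main mitotic cyclin, one of 0.24 (-0.67 to 1.14). Neither passed the threshold. For Cdk1, the kinase all of these bind, the lowest, median and highest values were -3.32, -1.94 and -1.29 in 0 Gy mice, the 2 Gy mice had -1.96, -1.56, -2.68, -1.81 and -2.09, and 8 Gy mice had -3.95, -2.78 and -1.26. The 8 Gy mice spread over the whole range of the others and beyond its lower end, and the log2 fold change was -0.53 (95% interval -1.42 to 0.37, adjusted p = 0.405 in limma). The Cdk1 probe cleared background on every 0 Gy array, on 4 of the 5 arrays of 2 Gy mice and on 4 of the 6 of 8 Gy mice.

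The kinases of mitotic entry gave estimates near 0. Plk1, polo-like kinase 1, had 8 Gy values of -0.19, 0.14 and 1.77 (lowest, median and highest) and 0 Gy values of -0.39, 0.37 and 1.57. The groups overlapped almost fully, with 8 Gy replicate 5 and 0 Gy replicate 5 highest, and the log2 fold change was -0.01 with a 95% interval of -0.83 to 0.82. Aurka, Aurora kinase A of the spindle poles, was at -0.04 (-1.02 to 0.93), and Melk, a kinase of dividing and progenitor cells, at 0.19 (-0.48 to 0.87). The intervals of these kinases reach upward to 0.93 and downward to -1.02.

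Spindle checkpoint genes did not pass the threshold. Bub1, a checkpoint kinase of the kinetochore, had a log2 fold change of 0.24 at 8 Gy (-0.35 to 0.84) and 0.02 at 2 Gy, and its probe was well above background on 9 arrays. Bub1b, which encodes the checkpoint protein BubR1, was at -0.39 (-1.08 to 0.30) at 8 Gy and -0.44 (-1.13 to 0.25) at 2 Gy. Ttk, the kinase Mps1 that starts the checkpoint, was well above background on 1 array, an 8 Gy one, and has no fold change here.

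Genes of ubiquitin ligation and mitotic exit all had positive estimates at 8 Gy. Ube2c encodes the ubiquitin-conjugating enzyme that works with the anaphase-promoting complex. Its lowest, median and highest signals were 4.94, 6.06 and 6.78 in 0 Gy mice, the 2 Gy mice had 6.36, 6.62, 5.13, 6.78 and 7.08, and the 8 Gy mice had 6.30, 6.66 and 7.40. Every 8 Gy mouse lay above the 0 Gy median, but the groups overlapped. The log2 fold change at 8 Gy was 1.04 ± 0.34 (SE, 95% interval 0.33 to 1.75), with an adjusted p of 0.0529 in limma, just outside the threshold. Leaving out 1 array moved Ube2c past it without 0 Gy replicate 3 (adjusted p = 0.0398), 0 Gy replicate 5 (0.038), 2 Gy replicate 3 (0.0314), 2 Gy replicate 4 (0.0481) or 8 Gy replicate 1 (0.0379, limma). Cdc20, the activator of the anaphase-promoting complex, was at 0.14 (-0.89 to 1.17), and Cdca3, an adaptor of a ubiquitin ligase that promotes mitotic entry, at 0.38 (-0.43 to 1.19). Of the 14 subunits and regulators of the anaphase-promoting complex on a separate list, 0 passed at 8 Gy in limma, with a median of -0.12. An unadjusted p under 0.05 was found for 5 of them, against 4501 of all 13619 genes. Without 0 Gy replicate 5, 2 were higher and 2 lower at 8 Gy (28.6%, against 22.6% of all genes), and 0 passed at 2 Gy.

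The chromosomal passenger complex was split in sign. Aurkb, Aurora kinase B, its catalytic subunit, had lowest, median and highest values of -2.72, -1.67 and -0.92 in 0 Gy mice, values of -1.62, -1.97, -2.58, -3.67 and -3.41 in 2 Gy mice, and lowest, median and highest values of -3.94, -2.42 and -1.08 in 8 Gy mice. The lowest values came from 2 Gy replicates 4 and 5 and 8 Gy replicate 2, which lay below every 0 Gy mouse, and the rest overlapped. The log2 fold change was -0.98 at 2 Gy (95% interval -1.95 to -0.01, adjusted p = 0.243 in limma) and -0.81 at 8 Gy (-1.78 to 0.16, adjusted p = 0.228). The Aurkb probe cleared background on every 0 Gy array, on 1 of the 5 arrays of 2 Gy mice and on 4 of the 6 of 8 Gy mice, and its low values lie near background. Its partners Birc5 (survivin) and Cdca8 (borealin), well above background on all 18 arrays, had log2 fold changes at 8 Gy of 0.51 (-0.28 to 1.30) and 0.36 (-0.24 to 0.95). None of the 3 passed the threshold at either dose.

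Centromere and kinetochore genes ranged from -0.44 to 0.41 at 8 Gy, with none of 5 past the threshold. Cenpa, the histone H3 variant of centromeres, had a log2 fold change of 0.40 (-0.11 to 0.91), Cenpe, a kinetochore motor, 0.21 (-0.54 to 0.97), and Cenpf, a large kinetochore protein of G2, 0.41 (-0.22 to 1.03). Ndc80 and Nuf2 form the arm of the kinetochore that grips microtubules. Ndc80 had lowest, median and highest signals of -2.82, -2.29 and -1.74 in 0 Gy mice, values of -2.96, -1.90, -4.16, -3.21 and -2.84 in 2 Gy mice, and lowest, median and highest signals of -3.13, -2.98 and -2.26 in 8 Gy mice. Of the 2 Gy mice, 4 lay below all 0 Gy mice, and replicate 2 lay above their median. Its log2 fold change was -0.68 at 2 Gy (-1.32 to -0.03, adjusted p = 0.227 in limma) and -0.44 at 8 Gy (-1.09 to 0.21). Ndc80 cleared background on 0 of the 5 arrays of 2 Gy mice, so its 2 Gy level was not reliably measured and the size of the difference is uncertain. Nuf2 was at -0.06 (-0.92 to 0.80) at 8 Gy.

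Spindle motors and microtubule proteins had 3 of the 5 genes with an unadjusted p under 0.05 at 8 Gy. Nusap1, which bundles spindle microtubules, had lowest, median and highest signals of 5.87, 6.68 and 7.12 in 8 Gy mice and 4.83, 5.92 and 6.86 in 0 Gy mice. The groups overlapped, with 5 of 6 mice at 8 Gy above the 0 Gy median, and the log2 fold change was 0.95 (0.20 to 1.71, adjusted p = 0.0800 in limma). Nusap1 passed without 0 Gy replicate 3 (adjusted p = 0.0484) or 8 Gy replicate 1 (0.0425, limma). Kif2c, a kinesin that takes microtubules apart at centromeres, had -3.10, -2.72 and -1.06 in 8 Gy mice and -4.46, -3.92 and -2.25 in 0 Gy mice. Only 0 Gy replicate 5 among the 0 Gy mice lay within the 8 Gy range, and the log2 fold change was 1.13 (0.18 to 2.08, adjusted p = 0.0958; 1.43 and 0.0275 without that array, limma). Hmmr, a spindle protein also known as a hyaluronan receptor, was at 1.12 (0.08 to 2.17, adjusted p = 0.128 in limma). The Kif2c and Hmmr probes were each well above background on 7 of 18 arrays, so much of their 0 Gy signal lies near background.

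Of the other spindle genes, Tpx2, the activator of Aurora kinase A, had a log2 fold change of 0.51 at 8 Gy (-0.06 to 1.09). Prc1, which crosslinks the midzone microtubules, was at 0.16 (-0.62 to 0.93). Kif20a, a kinesin of the central spindle, was at -0.23 (-0.97 to 0.52), and its other probe at -0.29. Kif11, the motor that separates the spindle poles, was well above background on at most 3 of 18 arrays by any of its 3 probes and has no fold change here.

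The chromosome proteins most used as proliferation markers did not pass the threshold. Mki67, the Ki-67 antigen that coats mitotic chromosomes, had lowest, median and highest signals of 2.29, 2.75 and 4.37 in 0 Gy mice, values of 3.36, 3.53, 2.42, 3.51 and 3.33 in 2 Gy mice, and lowest, median and highest signals of 2.73, 3.71 and 4.75 in 8 Gy mice. The groups overlapped, with 5 of 6 mice at 8 Gy above the 0 Gy median and 0 Gy replicate 3 among the highest. Its log2 fold change was 0.68 at 8 Gy (-0.13 to 1.48, adjusted p = 0.226 in limma), and its other probe gave 0.68 as well. Top2a, by the bright probe printed above, was at 0.47 (-0.25 to 1.19). Of the 29 genes, 6 had more than 1 probe past the filter, and all probes of a gene had the same sign at 8 Gy in all 6; at 2 Gy the Ccnb1 probes differed in sign (-0.07 to 0.36).

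**Figure D4:**
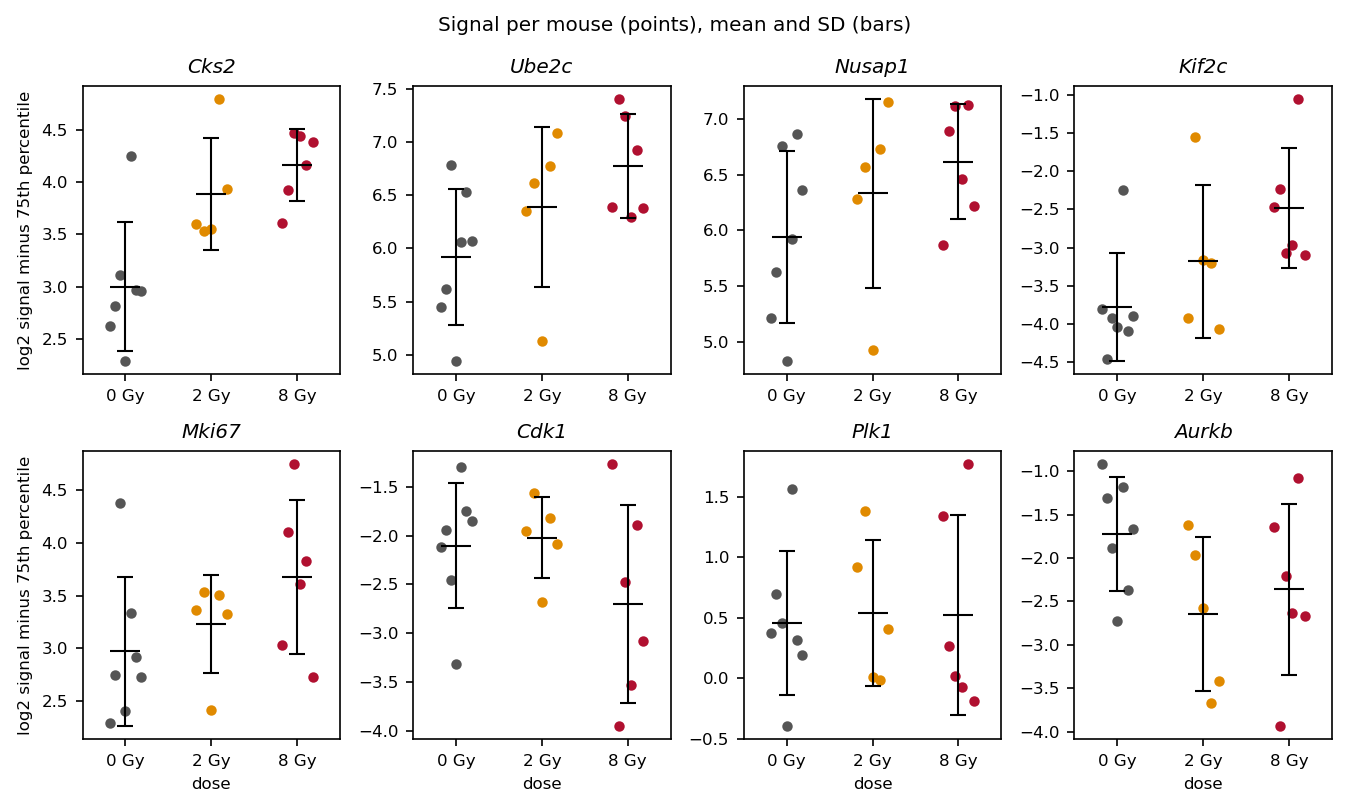
Log2 signal minus the array's 75th percentile for 8 of the genes, with a point per mouse at 0, 2 and 8 Gy (7, 5 and 6 mice) and the mean and SD as bars. In Cks2, 0 Gy replicate 5 at 4.25 is the only 0 Gy mouse within the range of the irradiated ones, and in Plk1 the doses overlap almost fully.

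Mitosis genes outside the 31, on a list of 67, behaved unevenly. Of the 53 tested, 6 were higher and 1 lower at 8 Gy (13.2%, against 12% of all genes), with a median of 0.20. The most changed were Psrc1 and Gtse1, spindle-associated genes that are also known p53 targets. The count was 11 higher and 1 lower without 0 Gy replicate 5 (22.6%, as over all genes). Psrc1 was 4.37 higher on the log2 scale at 8 Gy (adjusted p = 0.00867 in limma) and 4.05 higher at 2 Gy (adjusted p = 0.0375). It was the only gene of the lists to pass at 2 Gy in the fit of all 18 arrays. Without 0 Gy replicate 5, 4 of the 53 were higher and 1 lower at 2 Gy (9.43%, against 7.12% of all genes). The Psrc1 differences without 0 Gy replicate 5, which was at 2.86, were 5.20 at 8 Gy and 4.76 at 2 Gy. Psrc1 was among the signals that singled out that array, so these wider differences are no separate evidence. Gtse1 was 3.36 higher at 8 Gy (adjusted p = 0.00909 in limma), and 4.02 without 0 Gy replicate 5, which was at -0.08 where the other 0 Gy mice had -4.86 to -3.33. The Gtse1 probe cleared background on all 6 arrays of 8 Gy mice but on 2 of the 7 of 0 Gy mice, so most of its 0 Gy level lies near background and the size of the difference is uncertain. Cdc25b, a phosphatase that activates Cdk1, was 1.00 higher (adjusted p = 0.0252), and Kif20b, a kinesin of cytokinesis, was 0.93 lower in the fit (log2 -0.93, adjusted p = 0.0153, limma), and its probe cleared background on 2 of the 6 arrays of 8 Gy mice and 4 of the 7 of 0 Gy mice.

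Among brakes on the cell cycle linked to p53, several rose. Of 8 tested, 4 were higher and 0 lower at 8 Gy (50%, against 12% of all genes), with a median of 1.42: Cdkn1a, which inhibits cyclin-dependent kinases, by 3.41, Plk2 by 2.49, Ccng1 by 2.19 and Zmat3 by 1.63 (adjusted p = 0.00867, 0.00867, 0.00855 and 0.00867 in limma). With 0 Gy replicate 5 left out, 6 of the 8 were higher (75%, against 22.6% of all genes). The differences of these 4 genes were then 4.01, 2.95, 2.55 and 1.92. That array was singled out by its Cdkn1a and Psrc1 signals. Its omission therefore widens differences of p53 targets by choice and is no separate evidence. At 2 Gy without that array, 4 of the 8 were higher (50%, against 7.12% of all genes). Of the regulators and the G1/S genes given next, 1 of 17 (5.88%) and 1 of 27 (3.7%) were then lower at 2 Gy. Regulators of late cell cycle transcription were mixed. Of 17 tested, 1 was higher and 1 lower at 8 Gy (11.8%, against 12% of all genes). Tfdp2, a partner of E2F factors, was higher by 1.06 (adjusted p = 0.0469), while Lin9, a MuvB subunit, was at -0.84 (adjusted p = 0.0459, limma). Without 0 Gy replicate 5, 2 were higher and 1 lower at 8 Gy (17.6%, against 22.6% of all genes). Foxm1, the forkhead activator of G2 and mitosis genes, had 0.66 (0.07 to 1.26, adjusted p = 0.114), and Mybl2, the B-Myb activator, had 0.12 (-0.62 to 0.85, adjusted p = 0.847 in limma). Of the 27 G1/S and replication genes tested, 1 was higher (E2f2, 1.04) and 3 lower (Cdt1, Mcm5 and Mcm3, at -0.79, -0.77 and -0.81) at 8 Gy. That was 14.8%, against 12% of all genes. Without 0 Gy replicate 5, 2 were higher and 3 lower (18.5%, against 22.6% of all genes). With all 18 arrays the list median was -0.33, where the median of the 29 mitosis genes was 0.36.

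**Figure D5:**
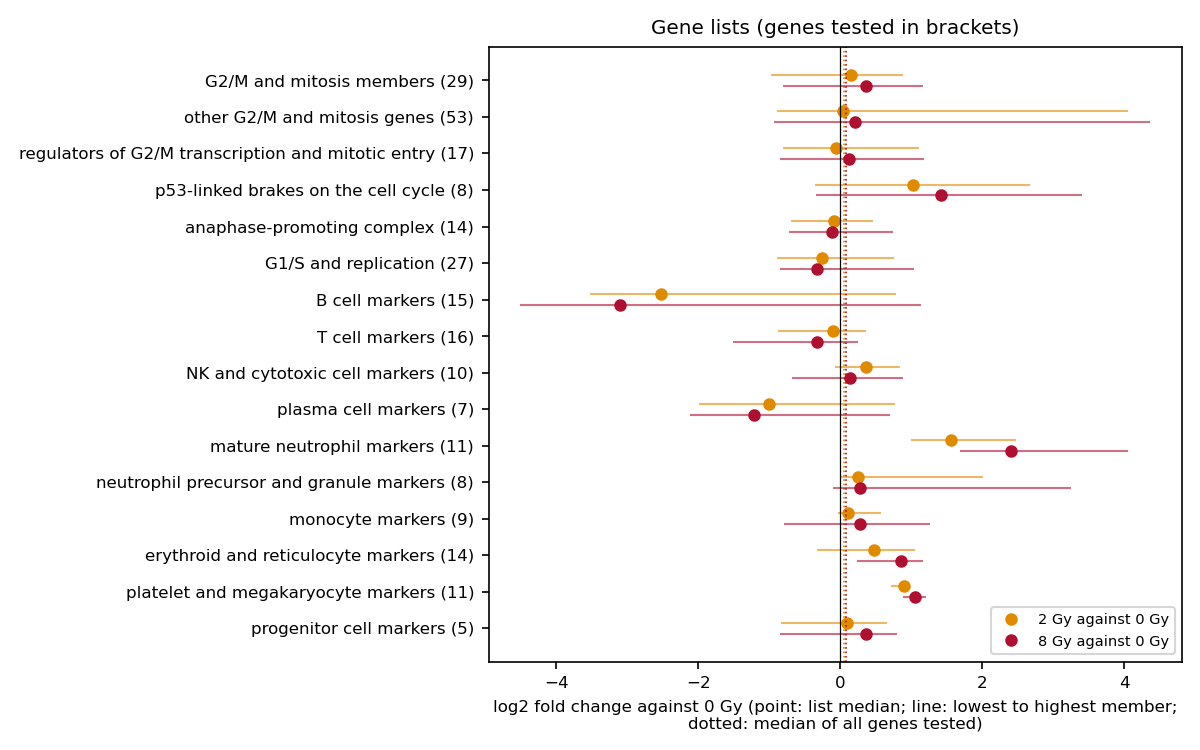
Log2 fold change against 0 Gy for each gene list (rows, with the number of genes tested), at 2 Gy (orange) and 8 Gy (red); points are list medians, lines run from the lowest to the highest member, and dotted lines mark the median of all genes. The 29 mitosis genes sit near 0 at medians of 0.15 and 0.36, between the lowered B cell and the raised neutrophil markers.

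Markers of some blood cell types changed at 8 Gy, where 12% of all genes passed. Of 15 B cell markers, 14 were lower (median -3.10), with list levels of -3.87 to -1.17 in 8 Gy mice against -1.89 to 0.79 in 0 Gy mice. Of 11 mature neutrophil markers, 11 were higher (median 2.40), with list levels of 1.31 to 3.43 in 8 Gy mice against -0.61 to 1.93 in 0 Gy mice. The -1.89 and the 1.93 both came from 0 Gy replicate 5, and without it the 0 Gy levels were -0.24 to 0.79 and -0.61 to 0.17 and neither list overlapped between 8 Gy and 0 Gy mice. Of 14 erythroid and reticulocyte markers, 2 were higher (14.3%), Epor and Tal1, and all 14 had positive estimates (median 0.86), with levels of -0.03 to 1.29 in 8 Gy mice against -0.76 to 0.96 in 0 Gy mice. Of 11 platelet markers 4 were higher (36.4%, median 1.05), of 16 T cell markers 2 were lower (12.5%, Ccr7 and Cd8b1, median -0.33), and of 7 plasma cell markers 1 was lower (14.3%, Ighm). The shares of the erythroid, T cell and plasma cell markers are near that of all genes. Among markers of NK and cytotoxic cells, monocytes and progenitors, 0 of 10, 0 of 9 and 0 of 5 passed in limma. Of these, 2, 3 and 2 had an unadjusted p under 0.05, against 4501 of all 13619 genes. Of 8 neutrophil precursor markers 1 was higher (12.5%, Lcn2). Without 0 Gy replicate 5, where 22.6% of all genes passed, 11 of 11 platelet, 5 of 14 erythroid, 2 of 10 NK and cytotoxic, 2 of 8 neutrophil precursor and 1 of 9 monocyte markers were higher, 2 of 16 T cell markers lower, and of 7 plasma cell markers 1 was higher and 2 lower. The B cell list then had 1 marker higher beside 14 lower, all 11 mature neutrophil markers were higher, and 0 of 5 progenitor markers passed in limma, with 2 at an unadjusted p under 0.05. At 2 Gy without that array, where 7.12% of all genes passed, 14 of 15 B cell markers were lower and 9 of 11 mature neutrophil markers higher. Of platelet, erythroid, NK and cytotoxic, and neutrophil precursor markers, 2 of 11, 2 of 14, 1 of 10 and 1 of 8 were higher. Plasma cell markers had 2 of 7 lower, and no T cell, monocyte or progenitor marker passed. The precursor markers Elane and Ms4a3 were well above background on no array. The part of these cell types in the values of the mitosis genes was not tested.

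The extraction kit was compared with dose held in the same fit. Of the 29 genes, 0 passed between PAXgene and RiboPure samples in limma, against 3.79% of all genes. Of all 13618 genes tested for the kit 2661 had an unadjusted p under 0.05, and of the 29 genes 4 did. The strongest was Tpx2, 1.02 higher on the log2 scale in PAXgene samples (95% interval 0.36 to 1.68, adjusted p = 0.0791 in limma). Cenpa, Nusap1 and Ccnb2 followed at 0.75, 0.97 and 0.86. Only 3 samples used PAXgene, none of them at 8 Gy.

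Within slides and scan days, the direction of the 29 genes varied. On slide 3, 17 of 29 were higher in the 8 Gy mice than in the 0 Gy mouse (median 0.29), whereas within scan day 7, where the 0 Gy array was replicate 5, 5 of 29 were higher and 24 lower (median -0.80). The 2 Gy mice were higher in 26 of 29 genes on slide 1 (median 0.50) and in 23 of 29 on slide 8 (0.22), and lower in 29 of 29 on slide 5 (-1.23), which paired 2 Gy replicate 3 with 0 Gy replicate 5. Most of these slides and days held 1 mouse of a dose. With slide or scan day as a fixed block, limma called 0 of the 29 genes at 8 Gy. An unadjusted p under 0.05 was found for 1 and 0 of them, against 1174 and 2522 of all genes.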

How the data were processed

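The authors deposited Agilent Feature Extraction 9.5.3.1 scanner files of 1-colour (Cy3) arrays with intensity values per spot, per the file headers, and a table of intensity values whose columns share one distribution; limma is also named in the submitters' processing notes. Scanner flags (units other: yes or no per spot) were used as deposited. Processed signals were averaged over spots of a probe (41174 probes; 45 outlier values left out) and log2 values were taken relative to each array's 75th percentile. A probe was kept if the scanner software rated it well above background on 5 or more of the 18 arrays, and the brightest probe stood for a gene. limma 3.58.1 in R 4.3.3 fitted dose and kit on all 18 arrays; the steps were tested on simulated data. Alternatives covered normalization, background correction, filter, kit, slide, scan day, replicate block, array weights and left-out arrays. Of the replicate numbers, 16 same-number pairs had correlations of residuals of -0.50 to 0.31, with 7 over 0.1. Pairs of different numbers were not compared, so these values cannot decide whether the numbers pair mice. The labels give separate mice.

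The 31 genes and the other lists were chosen with earlier results of these data known. All 31 are named; of other lists, at most 4 genes past the threshold per comparison, by smallest p, with Cdkn1a, Foxm1 and Mybl2 always. Probe positions are in mm7, and 22951 probes were named by accession and 9768 by symbol. The number of arrays limits precision.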

Additional observations from a re-analysis of the deposited data

Results flagged for a closer look

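In 7 of 90 gene and dose groups checked, the highest or lowest mouse stood far from the nearest other by Dixon's criterion at 95%. Chance flags about 1 in 20 groups if they are independent, and genes measured on the same array are not. In 0 Gy replicate 4, Aurka was at -0.90 (next lowest 0.55), Bub1b at -2.92 (next -2.06) and Cdca8 at 0.14 (next 1.20), each the lowest 0 Gy value. In 0 Gy replicate 5, Cks2 was at 4.25 (next highest 3.11) and Kif2c at -2.25 (next -3.80), each the highest 0 Gy value. In 2 Gy replicate 3, Ccna2 was at 2.66 (next lowest 4.34) and Mki67 at 2.42 (next 3.33), each the lowest 2 Gy value. All 7 came from the 3 arrays that stood apart. Those arrays were picked on these same data, so this is no separate evidence about them, and the cause was not tested.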

How the results depend on the processing

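At 8 Gy against 0 Gy, the number of the tested genes called was 1, and it changed under several alternatives. It was 3 with normexp background correction (Hmmr, Kif2c and Tpx2, not Cks2), with 2065 of all genes called. It was 2 when probes had to be well above background on at least 9 arrays, with 1782 of all genes called. It was 4 with array quality weights (Cks2, Nusap1, Tpx2 and Ube2c). It was 0 with no filter on dim probes, with RiboPure arrays only, with slide as a random block, with slide or scan day as a fixed block, and with array brightness as a covariate. The replicate block, for numbers that may or may not pair mice, gave 0 called at 8 Gy and a median of 0.28, with 246 of all genes called against 1628. Leaving out 1 array gave 0 to 3. At 2 Gy the number was 4 with array quality weights (Ccnb2, Cks2, Hmmr and Ube2c), where 4811 of all 13619 genes were called. It was 1 without the 3 arrays that stood apart (Cks2, 1.09, adjusted p = 0.0182 in limma), where 2455 of all genes (18%) were called. Leaving out 1 array gave 0 to 1 at 2 Gy, with 0 to 970 of all genes called. For the kit the number was 5 with array quality weights and 1 without the 3 arrays (Tpx2), and the all-gene counts of these fits are not given here. Between 8 Gy and 2 Gy it stayed 0 in all settings run. Cks2 at 8 Gy was positive in all 35 alternative fits (0.63 to 1.44) and called in 19. Over all genes, calls at 8 Gy numbered 4755 with array weights, 3534 without the 3 arrays, 294 with RiboPure only, 578 with no filter (where the all-gene median was 0.29), 625 with slide as a random block, 861 with scan day as a random block and 0 with brightness as a covariate; leaving out 1 array gave 277 to 3083. The causes were not tested. The brightness covariate, the fixed blocks, median centring, leaving out 3 arrays, and leaving 0 Gy replicate 5 out of the gene lists were chosen after seeing the data. Signals near background limit Bub1, Bub1b, Aurkb, Hmmr, Kif2c and Ndc80, and the number of mice limits all genes.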
